A study of Mus musculus with 13 samples.

Results

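The 10 genes Lgr5, Ascl2, Olfm4, Smoc2, Prox1, Sox4, Sox9, Cd44, Ephb2 and Onecut2 were followed through the epithelium of mouse colon tumors and adjacent mucosa. They are grouped here as intestinal stem cell genes, a name for the group and not a result for each member. They were chosen by symbol, with earlier results of these data known, and all 10 were found among the 32285 genes counted. The single-cell RNA sequencing analysed here covered 10 colon tumors and 3 samples of adjacent mucosa from 3 mice. All were C57BL/6J mice of the genotype ApcMin/+; p16cis/cis, which joins an Apc mutation to an epimutation (promoter methylation) of p16, and all received the supplemented diet enriched in folic acid, vitamin B12, betaine and choline. Mouse A was 24 weeks old and gave tumors 5 to 8 and mucosa 2, mouse B was 23 weeks old and gave tumors 9 and 10 and mucosa 3, and mouse C was 20 weeks old and gave tumors 1 to 4 and mucosa 1. No library from the control diet or from another genotype was analysed here, so neither diet nor genotype was compared. Mucosa was dissociated with EDTA and TrypLE and tumors with an enzymatic tumor kit, so dissociation and tissue cannot be told apart.

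In the intestinal crypt, stem cells at the base divide under Wnt signals, and their daughters differentiate as they move up. Wnt ligands stabilize beta-catenin, which acts with TCF and LEF factors on target genes, and the Apc protein drives the breakdown of beta-catenin. Lgr5 is a receptor for R-spondins, which raise Wnt signaling at the cell surface, and it marks cycling crypt stem cells. Ascl2 is a transcription factor of the same cells, Smoc2 a secreted matrix protein enriched in them, and Olfm4 a secreted glycoprotein that marks stem cells of the small intestine in mice but hardly those of the mouse colon. Sox9 and Sox4 are HMG-box transcription factors of the crypt, Ephb2 is a receptor tyrosine kinase that helps to position cells along the crypt, and Cd44 is a hyaluronan receptor found on crypt base cells and on leukocytes. Prox1 and Onecut2 are homeodomain transcription factors. Prox1 is found in enteroendocrine cells, and Onecut2 is known from the small intestine and liver.

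Epithelial cells were taken as the clusters whose cells carried UMIs of epithelial markers such as Epcam, Krt8 and Cdh1, and none of the 10 genes was used to cluster or to name cells. This gave 31241 epithelial cells of 108495 cells, 16921 from tumors and 14320 from mucosa, in 22 clusters. The UMIs (unique molecular identifiers, 1 per captured RNA molecule) of these cells were summed for each library. The sums held 22234682 to 40058420 UMIs in tumors (from 1146 to 2274 cells) and 59321677 to 79714156 in mucosa (from 2354 to 6816 cells). Libraries shared 14 to 61 cell barcodes per pair, at most 0.561% of the smaller library. In all 13 libraries the Y-linked genes lay above Xist, the X-inactivation transcript, which is a male pattern. In 7 of them this did not match the sex in the labels. The labels also gave both sexes to libraries of mouse A and of mouse C, and sex was not used. Levels are given as CPM, a gene's UMIs scaled to the epithelial total of its library, with the mean ± SD, and are not compared between genes. In such sums, fewer cells that express a gene and less RNA per cell cannot be told apart.

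Of the 9 genes that passed the filter on low counts, 7 were higher in the tumors and 0 were lower, with a median log2 fold change of 1.18 over the 9. The fold changes and adjusted p-values come from edgeR's quasi-likelihood test, with TMM scaling and Benjamini-Hochberg adjustment over 15533 genes. Tumor and mucosa epithelium differed widely: 33.7% of all genes tested were higher in tumors, 30.3% were lower, and their median log2 fold change was 0.04. Every tumor lay above every mucosa library for 7 of the 10 genes, and for 33.1% of all genes tested. The sizes separated the members: Onecut2 and Prox1 differed by far more than Lgr5 and Sox4, and Smoc2, Cd44 and Sox9 by less, while Ascl2 and Ephb2 did not pass the test. Scaling by library size alone, a setting added after the data were seen, moved the median of all genes from 0.04 to 0.31 and the split from 5227 higher and 4706 lower to 7027 and 3098. With it all 9 members passed, Ascl2 with a log2 fold change of 0.74 (adjusted p = 0.0136) and Ephb2 with 0.56 (adjusted p = 0.00413).

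**Figure D1:**
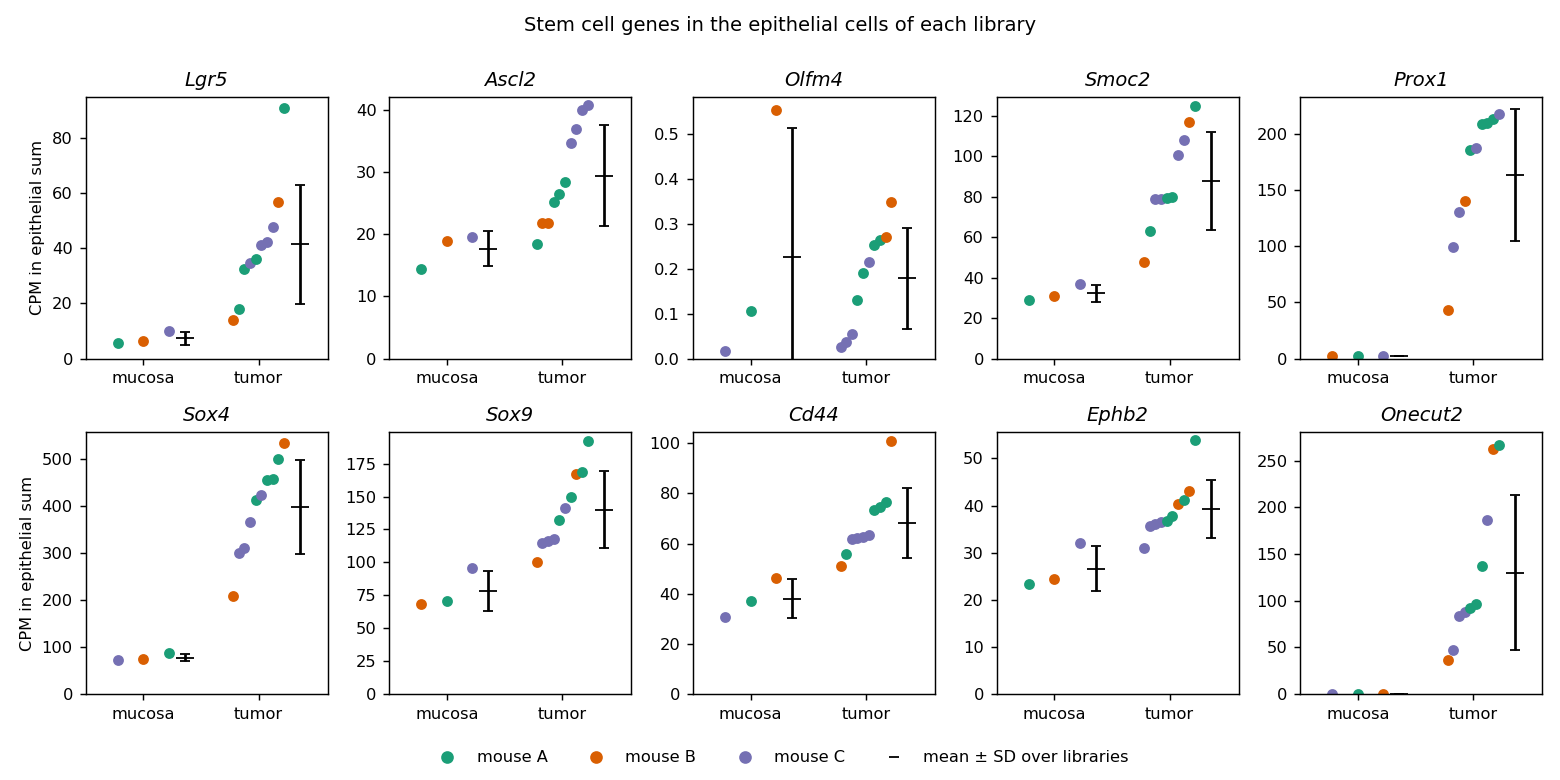
Level of each of the 10 genes (CPM, linear axis of its own for each gene) in the epithelial sum of every library, with 1 point per library colored by mouse and placed in order of level, and the mean ± SD of each tissue (cut at 0 for Olfm4 in mucosa). Tumors and mucosa are apart for 7 genes, from 36.1 to 267 against at most 0.09 CPM for Onecut2, and they overlap for Ascl2, Ephb2 and Olfm4.

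Lgr5, the R-spondin receptor (chr10:115450311-115587780, minus strand, mm10), had 14.0 CPM in the lowest tumor, a median of 38.8 and 90.8 in the highest, against 10.0, 5.70 and 6.34 in mucosa 1, 2 and 3. The highest value was tumor 6 and the lowest tumor 10, and the groups did not overlap. The means were 41.4 ± 21.6 (SD, n = 10) and 7.34 ± 2.32 CPM (n = 3), a log2 fold change of 2.22 ± 0.47 (SE; adjusted p = 0.00103). Within mice, the log2 ratio of the mean tumor level to the mucosa level was highest in mouse A (2.96), followed by mouse B (2.48) and mouse C (2.05). This order rests on few libraries, with a single mucosa library for each mouse. The tumor means were 44.3, 35.4 and 41.5 CPM in mouse A, B and C, and the mucosa of mouse C had the highest mucosa level. Mouse A held tumor 6, and the tumors of mouse B had 56.9 and 14.0 CPM.

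Smoc2 (chr17:14279506-14404790, plus strand) ranged from 47.7 to 125 CPM in the tumors with a median of 79.7, and was 36.9, 29.0 and 30.7 in the mucosa libraries. Tumor 10 was again the lowest tumor, still above all 3 mucosa libraries. Smoc2 differed by 1.18 ± 0.23 on the log2 scale (adjusted p = 0.000661).

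Ascl2 (chr7:142966829-142969264, minus strand) overlapped between the tissues. It had 18.5 CPM in the lowest tumor, a median of 27.5 and 40.9 in the highest, against 19.7, 14.5 and 18.9 in mucosa 1 to 3. Only tumor 6, the tumor highest in Lgr5, fell within the mucosa range. The log2 fold change of 0.48 ± 0.24 did not pass the test (adjusted p = 0.098). With the mouse as a replicate block it passed at a smaller size, 0.40 (adjusted p = 0.0348), but not with sums per mouse and the same block (0.38, adjusted p = 0.0977). It also passed without tumor 6 (0.54, adjusted p = 0.0447), in cells with under 10% mitochondrial UMIs (0.56, adjusted p = 0.0393), without cycling-like clusters (0.62, adjusted p = 0.0474) and, in a setting added after the data were seen, by library size alone (0.74, adjusted p = 0.0136).

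Olfm4 (chr14:79984081-80023139, plus strand) was almost absent from the epithelium of both tissues. Only 48 UMIs were counted over all tumors and 53 over all mucosa libraries, 44 of the latter in mucosa 3, and the levels were at most 0.35 and 0.55 CPM. It was left out of the test by the filter on low counts.

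Prox1 (chr1:190118035-190170714, minus strand) showed one of the widest gaps. The lowest tumor had 42.8 CPM, the median was 187 and the highest 218, against 2.31, 1.94 and 1.87 in the mucosa libraries. Tumors 2 and 10 were the lowest, and 6 tumors lay between 186 and 218 CPM. The log2 fold change was 6.05 ± 0.50 (adjusted p = 6.5e-07), from 163 ± 58.5 to 2.04 ± 0.24 CPM.

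Onecut2 had 36.1 CPM in tumor 10, a median of 94.7 and 267 CPM in tumor 5, the highest. The mucosa libraries had 0.02, 0.08 and 0.09 CPM, from 1, 6 and 7 UMIs. The log2 fold change of 10.63 ± 1.00 (adjusted p = 1.8e-06) thus rests on 14 mucosa UMIs, and it ranked 32 from the top among the 15533 genes. Onecut2 was also the most uneven of the tested members among tumors, with a coefficient of variation of 64.0%, against 15.8% for Ephb2.

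Sox4 (chr13:28948919-28953713, minus strand), a factor of progenitor cells, had 209 CPM in the lowest tumor, a median of 418 and 535 in the highest, against 72.1, 86.5 and 73.8 CPM in mucosa. All 10 tumors lay far above the mucosa of their own mouse. Sox4 differed by 2.08 ± 0.23 on the log2 scale (adjusted p = 6.8e-06).

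Sox9 (chr11:112782224-112787760, plus strand) differed far less than Sox4. The tumors ranged from 100.5 to 193 CPM with a median of 137, and mucosa 1 to 3 had 96.0, 70.5 and 68.5 CPM. Tumor 10 lay just above mucosa 1. The log2 fold change was 0.56 ± 0.17 (adjusted p = 0.00976), and it missed the threshold without mucosa 2 (0.49, adjusted p = 0.0517) or without mucosa 3 (0.48, adjusted p = 0.0582).

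Cd44 (chr2:102811141-102901665, minus strand) ranged from 51.1 CPM in tumor 10 to 101 in tumor 9, with a median of 63.0, and was 30.5, 37.2 and 46.2 in the mucosa libraries. The log2 fold change of 0.57 ± 0.17 (adjusted p = 0.00863) missed the threshold without mucosa 1 (0.44, adjusted p = 0.0689) and without clusters named absorptive-like (0.40, adjusted p = 0.0571). Ephb2 (chr4:136647539-136835988, minus strand), by contrast, overlapped between the tissues. The tumors had 30.9 to 54.0 CPM with a median of 37.3, and the mucosa libraries 32.1, 23.3 and 24.4. Its log2 fold change of 0.29 ± 0.14 did not pass (adjusted p = 0.0758), but it did without mucosa 1 (0.44, adjusted p = 0.0233) or without tumor 1 (0.33, adjusted p = 0.0415).

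**Figure D2:**
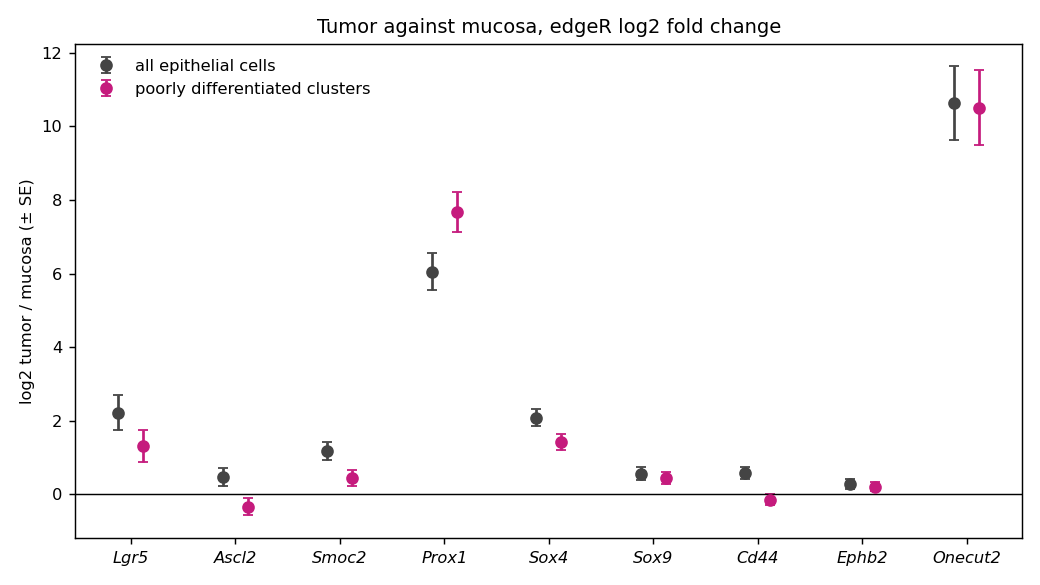
Log2 fold change of tumor over mucosa epithelium by edgeR with TMM scaling (vertical axis, ± SE) for the 9 tested genes in all epithelial cells and in the poorly differentiated clusters alone. Prox1 and Onecut2 stay far above the others in both, while Ascl2 goes from 0.48 to −0.34 and Cd44 from 0.57 to −0.14 (0.07 by library size alone).

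The tissues differed in the levels of genes of mature colonocytes. Of 14 colonocyte differentiation genes, 10 were lower in tumors and 0 higher (median log2 fold change −2.37), beside 30.3% lower and 33.7% higher of all genes tested. Among the lower ones was Ceacam1, an adhesion molecule (−2.35). Mucosa 1 stood apart here, with a summed level of the 14 genes of 1873 CPM against 13015 and 11671 CPM in mucosa 2 and 3. Car1, a carbonic anhydrase, had 161 CPM in mucosa 1, within the tumor range of 47.9 to 314 CPM, and 8969 and 8669 CPM in mucosa 2 and 3. The fits that left out a single library called 8715 to 10265 of all genes, in either direction. Without mucosa 1, 7 of the 9 stem cell genes were higher in tumors, with Ephb2 in place of Cd44, and Lgr5 differed by 2.50 (adjusted p = 0.00274). A comparison of the less differentiated cells alone was therefore added after the data were seen. It kept the 10 clusters in which marker genes of 5 mature cell types took under 0.5% of UMIs. Tumor and mucosa cells mostly sat in different clusters of this class. Tumor cells made up 99.0% to 99.9% of clusters 0, 1, 2, 6, 11 and 15 but at most 6.32% of clusters 3, 8 and 13, and cluster 4 was mixed (78.4%). Cluster 4, with 1623 tumor and 447 mucosa cells, had Muc3, one of the 14 colonocyte differentiation genes, among its leading genes. Its pooled Ascl2 was 3.35 CPM in tumor and 1.90 CPM in mucosa cells, and its Cd44 16.6 and 7.13 CPM. The part of cluster 4 in the comparison was not tested. In the 10 clusters together 5 of the 9 genes were higher in tumors, while 36.2% of all genes tested were.

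In these poorly differentiated clusters Prox1 had a log2 fold change of 7.68 (adjusted p = 1.2e-07), against 6.05 in all epithelial cells, and Onecut2 one of 10.51 (adjusted p = 1.5e-06), against 10.63. Sox4 differed by 1.42 (adjusted p = 5.8e-05), from 435 ± 102 to 139 ± 21.4 CPM. Lgr5 differed by 1.31 (adjusted p = 0.0172), from 44.1 ± 23.5 CPM to 15.3 ± 5.25 CPM. Its groups overlapped here, with 16.2 CPM in the lowest tumor and 21.3 CPM in the highest mucosa library. Sox9 differed by 0.46 (adjusted p = 0.0235). The other 4 did not pass, and for Ascl2 and, with TMM scaling, Cd44 the sign turned. Ascl2 had 33.1 ± 9.36 CPM in tumors and 36.3 ± 3.94 CPM in mucosa, a log2 fold change of −0.34 (adjusted p = 0.209). Cd44 had 73.7 ± 13.1 and 70.0 ± 16.2 CPM, a log2 fold change of −0.14 with TMM scaling (adjusted p = 0.435) and of 0.07 by library size alone. Smoc2 differed by 0.43 (adjusted p = 0.0927) and Ephb2 by 0.21 (adjusted p = 0.138), and both passed by library size alone, with 0.66 (adjusted p = 0.0212) and 0.42 (adjusted p = 0.00932).

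Genes of lists for dissociation stress, leukocytes and stroma also differed between the tissues, beside 33.7% of all genes tested that were higher in tumors and 30.3% that were lower. Of 15 dissociation stress genes, such as Fos and Atf3, 13 were higher in tumors and 0 lower (median log2 fold change 1.77), and their summed level was 2807 to 5958 CPM in tumors against 1445 to 1676 in mucosa. Of 12 leukocyte markers 7 were higher and 0 lower (median 2.62), with sums of 135 to 536 against 14.2 to 35.4 CPM, none of the 12 being at 0 in either tissue. S100a8 and S100a9 had the highest means, each 116 CPM in tumors, and S100a8 was a leading gene of the epithelial cluster 10. Ptprc, in the same list, did not pass (3.46 against 2.87 CPM, log2 fold change −0.01, adjusted p = 0.983). Of 10 stromal markers 8 were tested, and 5 were higher and 0 lower (median 3.81, also with Rgs5, at 0 in mucosa, set to its bound of 3 counts over the group), with sums of 8.03 to 48.7 against 0.76 to 2.16 CPM. Acta2 had the highest mean of the stromal markers (23.0 against 0.48 CPM). The cells that the UMIs of these 3 lists came from, and the part of the lists in the differences of the stem cell genes, were not tested. Cd44 is also carried by leukocytes. At 2000 UMIs per cell a Cd44 UMI was found in 77.2% ± 6.50 of tumor neutrophil-like cells, against 9.30% to 16.8% of the epithelial cells of each tumor.

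The members were spread unevenly over the epithelial clusters. A set of 7 clusters consisted to at least 95% of tumor cells, and these tumor-restricted clusters held 13611 of the tumor epithelial cells. The other 15 clusters, shared with mucosa or made mostly of mucosa cells, held 3310 tumor cells. Most of these were in cluster 4 (1623 cells), the absorptive-like cluster 10 (895) and the goblet-like cluster 9 (336). Clusters 3, 8 and 13, low in markers of mature cells, held 3, 41 and 66. The sets thus also differed in their kinds of cells. Tumor 10, the lowest tumor in Lgr5, Smoc2, Prox1, Onecut2 and Cd44, had the fewest tumor-restricted cells (633) and the most others (513). Within its tumor-restricted clusters Prox1 (86.1 CPM) and Smoc2 (71.0 CPM) were still the lowest of the tumors, while Cd44 had 88.1 CPM. Since genes that differ between the tissues also shape the clusters, the sets are described without a test. How many of all genes were higher in the tumor-restricted clusters of every tumor was not determined. In all 10 tumors the tumor-restricted clusters had the higher level of Lgr5 (52.6 ± 30.3 against 3.02 ± 1.59 CPM), Ascl2 (37.3 ± 10.2 against 3.30 ± 1.79 CPM) and Smoc2 (106 ± 30.5 against 21.5 ± 7.45 CPM). The same held in 10 of 10 tumors for the transcription factors. Sox4 had 491 ± 88.2 against 59.7 ± 20.1 CPM, Prox1 205 ± 64.0 against 2.92 ± 1.65 CPM, and Onecut2 162 ± 93.4 against 3.16 ± 3.60 CPM. Sox9, with 157 ± 32.1 against 82.0 ± 18.6 CPM, and Cd44, with 82.7 ± 12.8 against 21.1 ± 8.10 CPM, were also higher in 10 of 10. Ephb2 was the exception, with 40.3 ± 7.16 against 38.5 ± 6.83 CPM and the tumor-restricted clusters higher in 5 of 10 tumors. Olfm4 rested on 20 and 28 UMIs. A few tumor cells, 66, fell in cluster 13, a cluster of mostly mucosa cells. Pooled, they had 30.1 CPM of Lgr5, 35.1 of Ascl2 and 129 of Smoc2, but 0.84 of Prox1 and 0.84 of Onecut2, a single UMI each.

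**Figure D3:**
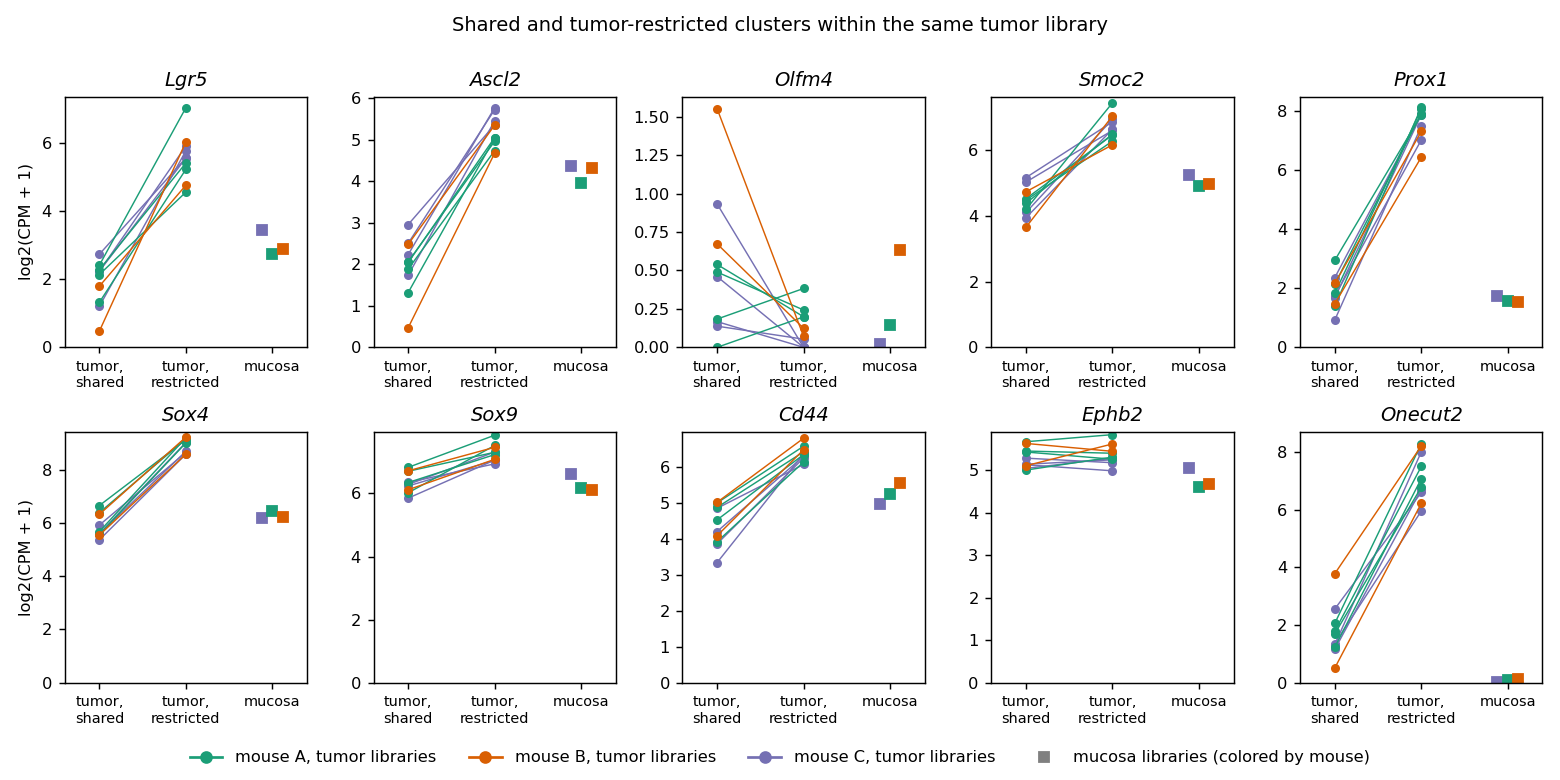
Level of each gene (log2(CPM + 1), axes from 0) in the shared and in the tumor-restricted clusters of the same tumor, with a line for each of the 10 tumors and squares for all epithelial cells of the 3 mucosa libraries, colored by mouse. The lines climb in 10 of 10 tumors for 8 genes, and run in both directions for Ephb2 and Olfm4.

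Among the tumor-restricted clusters the genes did not keep to 1 order. Cluster 0 had the highest Lgr5 (77.6 ± 35.2 CPM, n = 10 tumors), a spread that took in the pooled levels of clusters 1 and 2 (66.0 and 61.9 CPM). Cluster 2, named Wnt-high epithelial-like, had the highest Prox1 (318 ± 54.3 CPM) and Smoc2 (132 ± 33.4 CPM), the latter within the spread of cluster 0 (127 ± 35.5 CPM). Lgr5 was lower in cluster 6, the other Wnt-high epithelial-like cluster (15.3 ± 5.02 CPM, n = 8 tumors), whereas Ascl2 was high there (53.9 ± 15.9 CPM). Cluster 1 had the highest Sox4 (859 ± 122 CPM), Cd44 (182 ± 42.3 CPM) and Ephb2 (70.2 ± 19.8 CPM) but a low Ascl2 (13.4 ± 3.26 CPM). Cluster 17, Paneth-like by its lysozyme and defensin genes, held Lgr5 (58.0 ± 31.4 CPM) and Sox9 (244 ± 48.4 CPM). Clusters 0 and 1 were led by Lars2, Gm42418 or Gm26917. Their mean levels of Gm42418, a transcript that overlaps ribosomal RNA sequence, were 79596 and 79622 CPM against 19295 in cluster 2, and their median depths 6874 and 6184 UMIs against 20198. Without both clusters, a setting added after the data were seen, Cd44 alone lost its call (log2 fold change 0.39, adjusted p = 0.0715), and Sox4 kept 1.81 and Lgr5 2.02.

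In mucosa the same genes lay in several kinds of cells. The highest mucosa level of Lgr5 was in the tuft-like cluster 22 (37.7 ± 16.6 CPM, from 61 UMIs), followed by the unnamed clusters 13 (26.2 ± 2.10 CPM) and 3 (15.4 ± 4.02 CPM) and by the cycling-like cluster 8 (12.2 ± 2.09 CPM). Tuft-like and cluster 13 did not differ beyond their spread. Ascl2 followed nearly the same order, with 53.3 ± 2.24, 48.6 ± 8.66, 39.1 ± 2.80 and 34.5 ± 2.11 CPM, and Smoc2 was highest in cluster 13 (92.4 ± 26.9 CPM). Prox1 was present in mucosa in enteroendocrine-like (78.9 ± 16.9 CPM) and tuft-like cells (47.1 ± 10.2 CPM), while clusters 3 and 13 had 0.43 ± 0.41 and 0.45 ± 0.45 CPM. Sox4 was also highest in these cells, with 442 ± 202 CPM in enteroendocrine-like and 410 ± 144 CPM in tuft-like cells, values that overlap with each other. Sox9 peaked in tuft-like cells (387 ± 42.5 CPM). The absorptive-like cluster 7 was low in Sox4 (3.94 ± 1.33 CPM, n = 2), Sox9 (2.65 ± 0.04 CPM) and Cd44 (1.77 ± 0.07 CPM).

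**Figure D4:**
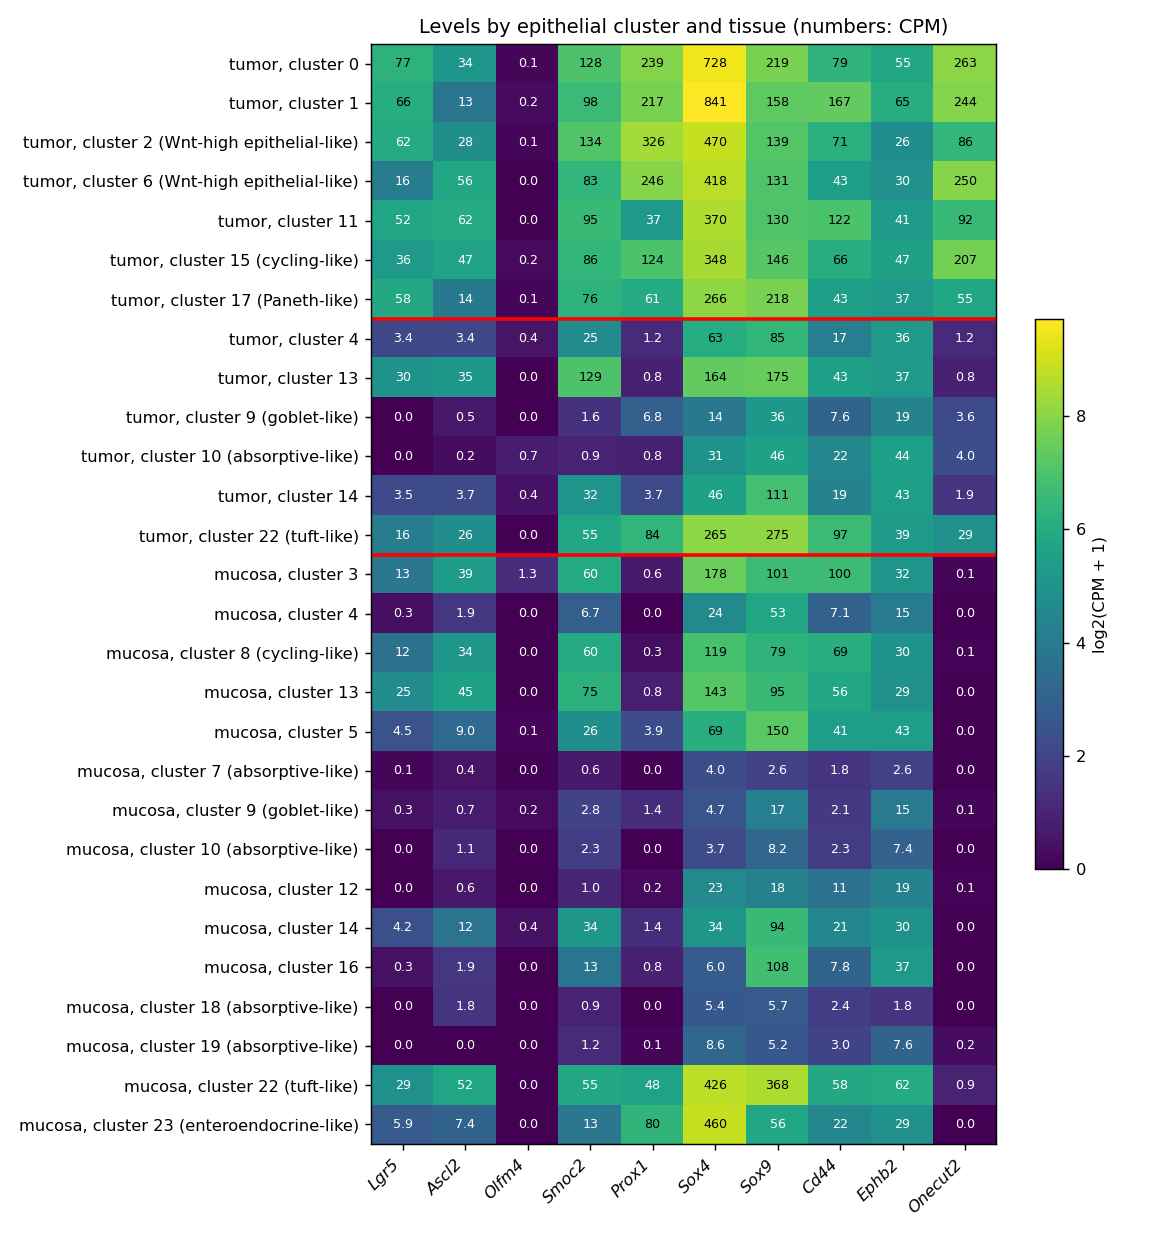
Level of the 10 genes (columns) in each epithelial cluster by tissue (rows), from UMIs pooled over the libraries of the tissue, with numbers in CPM and color for log2(CPM + 1), and red lines between tumor-restricted clusters, other tumor cells and mucosa cells. Onecut2 is highest in the tumor-restricted block, Prox1 is also present in mucosa enteroendocrine-like and tuft-like cells, and Ephb2 spans all 3 blocks.

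Over 28 such profiles of clusters by tissue, the genes most like each member were found by Pearson's r of log2(CPM + 1) among 11525 genes. The profiles share libraries, and r is given as a description. Lgr5 was most like Pxdn (r = 0.96), Tead2 (0.94) and Smoc2 (0.94), and Smoc2 most like Tiam1 (0.95), 5430416N02Rik (0.94) and Lgr5. Ascl2 was most like Hmga1, Nme4 and Efna4 (each 0.93). Prox1 was most like Mef2a (0.96), Pdgfrl (0.95) and Evl (0.95), and Sox4 most like Tmem132a, Dcakd and Mex3a (each 0.96). Onecut2 was most like Sox17 (0.98), the Wnt inhibitor Notum (0.97) and the T-box gene T (0.97). Sox9 was most like Kank1 (0.95), N4bp3 (0.94) and Hopx (0.93), Cd44 most like Zbtb38 (0.94), Sox4 (0.92) and Dcakd (0.92), and Ephb2 most like Actn1 (0.92), Sox9 (0.91) and Lrrk1 (0.90). No gene came above 0.48 for Olfm4 (Slc23a4). Among the members themselves, Lgr5 and Smoc2 were the closest pair, and Lgr5 and Onecut2 had r = 0.69.

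The share of epithelial cells with a UMI of each gene was compared after each cell was thinned to 2000 UMIs, which left out 590 tumor and 292 mucosa cells. Lgr5 had a UMI in 3.85% of cells in the lowest tumor, 9.14% at the median and 17.6% in the highest, and in 2.10%, 1.03% and 1.48% in mucosa 1 to 3. The groups did not overlap, with means of 9.49% ± 4.04 (n = 10) and 1.54% ± 0.54 (n = 3), from 1582 of 16331 and 192 of 14028 cells. Without thinning the shares were 29.4% and 8.19%, at median depths of 12878 and 12763.5 UMIs. In B cell-like cells, which should lack Lgr5, 0 of 3029 tumor and 0 of 635 mucosa cells had a UMI, which allows shares of up to 0.099% and 0.472%, with counting error only and at this thinned depth. Without thinning, 0.169% and 0.337% of these cells had one, at median depths of 2483 and 2829 UMIs. Thinned tumor neutrophil-like and plasma cell-like cells had an Lgr5 UMI in 0.0989% and 0.157% of cells. Onecut2 had a UMI in 20.4% ± 10.8 of tumor cells, from 6.80% to 38.6%, and in 0 of 14028 mucosa cells, which allows up to 0.0214% at this thinned depth. Without thinning the Onecut2 shares were 48.3% and 0.0773%. Olfm4 had a UMI in 0.0665% of tumor epithelial cells but in 5.51% ± 1.40 of tumor neutrophil-like cells, of median depth 2844 UMIs.

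Several members were often found in 1 cell in the tumors. At 2000 UMIs, 26.3% ± 6.84 of tumor epithelial cells had UMIs of at least 3 of the 10 genes, against 2.71% ± 0.68 of mucosa cells. None of the 10 was found in 22.6% ± 8.38 and 66.3% ± 2.62 of cells. The lowest tumor, with 12.5% of cells at 3 or more, was above the highest mucosa library, with 3.31%. No expectation from the shares of the single genes was computed. The values therefore do not show whether the genes go together within cells more than those shares imply.

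Epithelial cells with at least 1 Lgr5 UMI at that depth were then compared with the other cells of the same library, leaving Lgr5 out of the tests. In tumors 6 of 8 tested members were higher in Lgr5-positive cells and 0 lower, with a median log2 difference of 0.60, against 11.4% of all genes higher and a median of 0.00. In 10 of 10 tumors the Lgr5-positive cells had more Smoc2 (231 ± 36.3 against 92.6 ± 22.5 CPM, log2 difference 1.20, adjusted p = 3.5e-15), Prox1 (369 ± 116 against 172 ± 54.2 CPM, 0.96, adjusted p = 5e-10), Sox9 (252 ± 32.4 against 145 ± 24.6 CPM, 0.69, adjusted p = 2.6e-08) and Sox4 (793 ± 88.6 against 478 ± 105 CPM, 0.63, adjusted p = 2.4e-07). Ascl2 was higher in 8 of 10 tumors (0.56, adjusted p = 0.0106) and Onecut2 in 7 of 10 (0.36, adjusted p = 0.0108). Cd44, higher in 4 of 10, did not pass (−0.26, adjusted p = 0.0997), nor did Ephb2 (0.21, adjusted p = 0.242). Gm42418 differed in the same direction (79486 against 62624 CPM, log2 difference 0.26, adjusted p = 3.2e-05), and its part was not tested.

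The comparison was repeated in the tumor clusters where at least 10% of cells were Lgr5-positive, among them the Paneth-like cluster (11.7%). Smoc2 (0.95), Prox1 (0.68), Sox9 (0.59) and Sox4 (0.31, adjusted p = 0.00112) were still higher in the positive cells. Ascl2 (0.34, adjusted p = 0.176) and Onecut2 (0.16, adjusted p = 0.231) did not pass there, and Cd44 was lower in Lgr5-positive cells (−0.60, adjusted p = 0.000185).

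In mucosa, with 192 Lgr5-positive cells, 5 of 7 tested members were higher in them and 0 lower (median log2 difference 1.18), against 3.36% of all genes higher and a median of −0.11. Smoc2 differed by 2.36 (adjusted p = 1.7e-17), Ascl2 by 1.53 (adjusted p = 0.00698), Cd44 by 1.21 (adjusted p = 0.00153), Sox4 by 1.18 (adjusted p = 4e-07) and Sox9 by 0.93 (adjusted p = 0.000824), each in 3 of 3 libraries. Prox1, with 4 UMIs in the positive cells, did not pass (1.13, adjusted p = 0.525), nor did Ephb2 (0.45, adjusted p = 0.622). Tested as an interaction, which called 5.4% of all genes, the difference between the Lgr5 classes was smaller in tumors than in mucosa for Smoc2 (−1.04, adjusted p = 0.00125) and Cd44 (−1.35, adjusted p = 0.00445). For Ascl2 it was −0.85 (adjusted p = 0.249), and Onecut2 and Olfm4 could not be tested. At a minimum of 2 Lgr5 UMIs for a positive cell no member passed this interaction test. That setting left 5, 5 and 2 positive cells in mucosa 1, 2 and 3, too few to decide the question. The Lgr5-negative cells came mostly from different clusters in tumors and mucosa, and included cells with an Lgr5 UMI before thinning. The part of either in the interaction was not tested.

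Of 8 cycling genes, the markers used to name cycling-like clusters, 6 were lower in Lgr5-positive tumor cells and 0 higher, against 15.7% of all genes lower. In mucosa 4 were higher and 0 lower, and 6 passed the interaction test, with a lower difference in tumors. Top2a, a topoisomerase of dividing cells, differed by −0.29 in tumors (adjusted p = 0.0428) and by 0.98 in mucosa (adjusted p = 1.9e-05), with an interaction of −1.14 (adjusted p = 0.000369). This comparison and its other settings were added after the data were seen, and the counts depended on the cells drawn. Another random thinning to the same depth gave 2 lower in tumors, 2 higher in mucosa and 3 in the interaction. A minimum of 2 Lgr5 UMIs gave 3, 0 and 0, with only 5, 5 and 2 positive cells in mucosa 1, 2 and 3. For these genes too, the part of the different Lgr5-negative cells of the tissues was not tested.

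**Figure D5:**
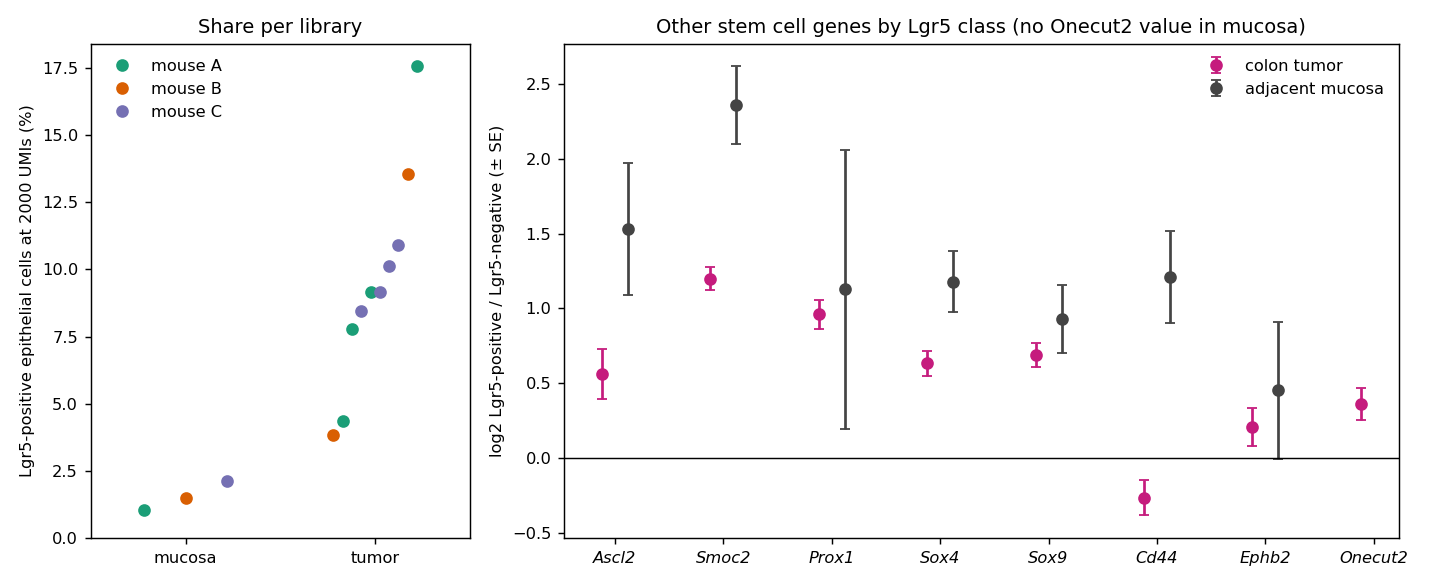
Left, share of epithelial cells with an Lgr5 UMI at 2000 UMIs per cell in each library, and right, log2 difference (± SE) of the other genes between Lgr5-positive and Lgr5-negative cells in tumors and mucosa. All 10 tumors, from 3.85% to 17.6%, lie above the 3 mucosa libraries, and Cd44 stands at −0.26 in tumors and 1.21 in mucosa.

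Between the mice, 69 of 15496 genes (0.445%) differed among the tumors and no stem cell gene did, by edgeR's F test over the 3 mice. Mouse and age cannot be told apart. Ascl2 came nearest, with 38.2 CPM in the tumors of mouse C against 24.7 in those of mouse A and 21.8 in those of mouse B (unadjusted p = 0.00057, adjusted p = 0.0645), the 4 tumors of mouse C lying above the 6 others. At an unadjusted p under 0.05 there were 2751 genes, 1 of them a member, and DESeq2 called 1138 genes and 1 member. Without tumor 9 Ascl2, Prox1 and Sox4 passed among 1496 genes, and without tumor 10 Ascl2 among 788. Mouse B gave 2 tumors, so each of these fits left it with 1, assumed to vary like the others.

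Of 20 other crypt stem cell signature genes, 9 were higher in tumors and 3 lower, beside 33.7% and 30.3% of all genes tested (median log2 fold change 0.52, the same with Gkn3 and Cyp2e1, at 0 in mucosa, at their bounds). Igfbp4, an IGF binding protein, had 198 against 3.98 CPM (5.37, adjusted p = 1e-06). Lower were Aqp4, a water channel (−1.35, adjusted p = 0.00616), the cell cycle kinase Cdk6 (−0.49, adjusted p = 0.0445) and Rgmb, a BMP co-receptor (−0.63, adjusted p = 0.0132). Slc12a2 (−0.05), Cdca7 (−0.02), Nfib (0.36) and Hopx (0.73, adjusted p = 0.0546) did not pass. By library size alone 12 were higher and 1, Aqp4, lower, and the values of Slc12a2 and Cdca7 turned positive.

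Of 12 Wnt target genes, 10 were higher and 0 lower (median log2 fold change 2.84), beside the same 33.7% and 30.3% of all genes, with Nkd1, a feedback inhibitor, at 6.91, the secreted inhibitors Wif1 at 7.08 and Notum at 8.76, and Axin2 and Rnf43, which limit the pathway inside the cell and at its surface, at 2.58 and 2.37. The cell cycle gene Ccnd1 (0.35, adjusted p = 0.0628) and the transcription factor Myc (0.08, adjusted p = 0.675) did not pass. Among the R-spondin receptors and ligands, 3 of 6 could be tested. Lgr4, the relative of Lgr5 found throughout the epithelium, had 44.3 against 31.2 CPM and did not pass (0.24, adjusted p = 0.268), while Lgr6 (2.75 against 0.004 CPM) and Rspo4 (0.27 against 0.004 CPM) were higher in tumors at low counts.

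Of the relatives of Ephb2 and their ligands, 6 of 7 were tested and 4 were higher and 1 lower, with a median of 0.74. Of all genes tested, 33.7% were higher and 30.3% lower. The receptors Ephb3 (0.94, adjusted p = 0.0013), Ephb4 (0.55) and Ephb6 (4.28) and the ligand Efnb3 (1.16) were higher, and the ligand Efnb1 was lower (−0.46, adjusted p = 0.0209). Efnb2 (0.44, adjusted p = 0.189) did not pass, and by library size alone 5 were higher and 0 lower. Of 12 close relatives of the other members, 8 were tested, with 5 higher and 1 lower (median 3.12), beside the same 33.7% and 30.3% of all genes. Sox11 had 6.98 against 0.004 CPM and Sox12 3.33 against 1.35 CPM (1.03), while Olfm1 had 0.23 against 0.61 CPM (−1.67, adjusted p = 0.00235).

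Promoter sequences are shown for Sox4, Ascl2 and Prox1, transcription factor genes that differed in the size of their change. RefSeq (GRCm38.p6) gave windows for 6 of the 10 members, 7 windows in all, and the 250 bases before each start were searched on both strands. The sequences below are on the minus strand, 5′ to 3′, in lower case, with each match to CCAAT or its reverse complement ATTGG, the CCAAT box of many promoters, in capitals.
Sox4 (chr13:28953700-28953949): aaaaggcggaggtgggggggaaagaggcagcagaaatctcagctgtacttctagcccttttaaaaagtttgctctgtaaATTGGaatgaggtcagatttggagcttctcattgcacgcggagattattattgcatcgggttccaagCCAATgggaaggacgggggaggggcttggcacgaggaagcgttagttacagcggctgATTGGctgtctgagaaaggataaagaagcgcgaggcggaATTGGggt
Ascl2 (chr7:142969265-142969514): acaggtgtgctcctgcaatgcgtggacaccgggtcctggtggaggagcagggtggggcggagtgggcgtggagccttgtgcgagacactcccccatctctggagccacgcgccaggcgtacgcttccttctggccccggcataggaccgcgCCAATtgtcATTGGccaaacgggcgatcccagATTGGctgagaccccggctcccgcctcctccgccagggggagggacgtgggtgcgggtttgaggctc
Prox1 (chr1:190170828-190171077): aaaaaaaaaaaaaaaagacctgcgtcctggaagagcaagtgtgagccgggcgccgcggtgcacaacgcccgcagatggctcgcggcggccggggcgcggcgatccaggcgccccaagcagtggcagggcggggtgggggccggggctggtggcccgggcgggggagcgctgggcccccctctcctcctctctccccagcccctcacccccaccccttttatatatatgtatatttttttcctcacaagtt
Sox4 held 4 matches, Ascl2 3 and this Prox1 window none. CCAAT or ATTGG was in 4 of the 7 member windows (Ephb2, Ascl2, Sox4 and Olfm4) and in 33.8% of all 32851 windows. The TCF and LEF motif CTTTGAT or its reverse complement ATCAAAG was in 0 of the 7 and in 3.21% of all windows, which says only that these letters are not in these windows. TATAAA or TTTATA was in 1 of the 7, upstream of Prox1, and in 12.4% of all. Sox4 and Ascl2, both with CCAAT matches, had log2 fold changes of 2.08 and 0.48.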

How the data were processed

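The authors deposited raw UMI counts per gene and cell for each library, made with Cell Ranger 6.0.0 on mm10 per the file headers and the submitters' processing notes. Cells with at least 500 UMIs, 200 genes and under 25% mitochondrial UMIs were kept, the barcodes most like simulated doublets were removed, in a number set by the barcodes of the library, and cells were clustered (Leiden method, leidenalg 0.10.2, resolution 1) without the 10 genes. Epithelial clusters were clustered again, and UMIs were summed per library. Tests were edgeR 4.0.16 quasi-likelihood fits (R 4.3.3) with filterByExpr, TMM and an adjusted p threshold of 0.05, with DESeq2 1.42.0 as an alternative. The code was tested on simulated data. All 10 members are named. From each other gene list, genes were named by highest mean CPM or by passing the test against the direction of the list. Myc was named outside these rules, and Car1, Ceacam1, Muc3, Fos, Atf3, Ptprc, Rgs5, Gkn3, Cyp2e1, Mki67, Top2a and Lrig1 were named after their values were seen. Positions are from GENCODE vM21. The members and lists were chosen with earlier results of these data known. Tumors of 1 mouse share the animal, so p-values over libraries measure the spread between tumors. The animal code pairs tumors with mucosa, and deviations from the group means correlated between tumors and mucosa (0.193 in mouse A, 0.106 in mouse B, 0.219 in mouse C, over 15533 genes), so the mouse was used as a replicate block in an alternative.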

Additional observations from a re-analysis of the deposited data

Results flagged for a closer look

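A pair of values stood apart from the rest of their group. Cd44 in tumor 9 (101 CPM) and Ephb2 in tumor 6 (54.0 CPM) lay further from the next tumor than Dixon's criterion allows at 10 samples. Of 11 groups examined, chance alone singles out about 1 in 20. The difference between Lgr5-positive and Lgr5-negative cells was smaller in tumors than in mucosa by the interaction test for Smoc2 (log2 −1.04, adjusted p = 0.00125) and for Cd44 (log2 −1.35, adjusted p = 0.00445). The Lgr5-negative cells came mostly from different clusters in tumors and mucosa, and their part was not tested.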

How the results depend on the processing

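Of 261 values of the 9 tested members under 29 settings, 242 kept their direction and their side of the threshold, 7 lost their call, 9 gained one and 3 changed sign. The count of members higher in tumors was 7 and ranged from 5 to 9. Sign changes came only in the poorly differentiated clusters, added after the data were seen (Ascl2 −0.34, and −0.13 by library size alone, Cd44 −0.14), and the cause was not tested. With the mouse as a replicate block, 8 members were higher, 0 lower and 10222 genes changed, and with sums per mouse and the same block 7, 0 and 8944. Apart from Ascl2, which passed with the block (0.40) but not with sums per mouse (0.38), the block changed no call. Leaving out each library gave 6 to 8 members higher, 0 lower and 8715 to 10265 genes. Between mice the counts were 69 genes and 0 members, 1138 and 1 by DESeq2, and 0 to 1496 and 0 to 3 with each tumor left out. Between Lgr5 classes, 2459 genes changed in tumors and 1232 in mucosa, with 2 members in the interaction. Thinning to 3000 UMIs gave 2081 genes in mucosa and 4 members in the interaction, for which the share of all genes is not given. At least 2 Lgr5 UMIs gave 1457 in tumors, 420 in mucosa and 0 in the interaction, with 5, 5 and 2 positive cells in mucosa 1, 2 and 3. The clusters with at least 10% Lgr5-positive cells gave 1120 in tumors, and could not be fitted in mucosa, where fewer than 2 libraries held them. The cause of these changes was not tested. Olfm4 in both tissues and Onecut2 in mucosa had few UMIs, and Lgr5-positive cells in mucosa were few.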

Other observations

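In mucosa, B cell-like cells had an Onecut2 UMI in 1.38% ± 1.21 of cells (635 cells at 2000 UMIs, n = 3 libraries), above the 0 of 14028 mucosa epithelial cells, and in tumors in 0.211% ± 0.563 (3029 cells, n = 10). The difference was not tested. Onecut2 UMIs in these cells were seen in 2 of the 3 mucosa libraries. The shares by mucosa library were 0%, 1.87% and 2.27%, each with equal weight in the mean, which rests on few cells.

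Of 12 Wnt target genes, 6 were higher in the Lgr5-positive tumor cells and 1 lower, and of 15 other crypt stem cell signature genes tested, 12 were higher and 1 lower, while 11.4% of all genes tested were higher. Lrig1, a growth factor receptor inhibitor, differed by 1.07 (adjusted p = 5.2e-06), although between tumor and mucosa epithelium it had 20.8 against 24.5 CPM and did not pass the test (log2 −0.50, adjusted p = 0.127).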
